A study of Mus musculus with 12 samples.

Results

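The right ventricle (RV) of mice with a clipped pulmonary artery was compared with the RV of sham-operated mice, both taken 3 weeks after the operation. The 2 groups were found by their sample titles, and they hold 4 of the 12 arrays of the series. All genes represented by a probe set of a single gene were described, which gave 19938 genes, with the probe set of the highest mean over the 12 arrays standing for a gene that had several. This was the only pair of RV groups in the series taken at the same time after surgery.

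The clipped animals were male C57BL/6 mice aged 15 weeks, in which a Weck haemoclip had been closed around the pulmonary artery (pulmonary artery clipping, PAC). The sham animals were male C57BL/6 mice of the same age. The other groups used below were PAC RV at 1 week (age 13 weeks), PAC RV at 6 weeks (age 18 weeks), left ventricle (LV) 3 weeks after a clip around the aorta (transaortic constriction, TAC, age 15 weeks) and sham LV at 3 weeks (age 15 weeks), with 2 arrays in each of the 6 groups. Hearts were perfused with buffer and divided into LV, septum and RV, and total RNA was labelled with biotin for Affymetrix whole-transcript arrays. The labels name no C57BL/6 substrain, and they leave unsaid how many animals an array stands for and whether the sham pieces of both chambers share hearts. The p-values below therefore measure the spread between these arrays, which may be technical.

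A clip on the pulmonary artery narrows the outflow of the RV, so the muscle has to pump against a higher pressure. Loaded cardiomyocytes enlarge, switch on genes of the fetal heart such as those of the natriuretic peptides and of beta myosin heavy chain, and use less fatty acid for fuel. Fibroblasts between the muscle cells divide and lay down collagen and other extracellular matrix, which stiffens the wall.

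Levels are given as the deposited log2 expression values, in which 1 unit is a doubling. Paired levels are those of array 1 and array 2 of the group named beside them. Changes are log2 differences between the group means, PAC minus sham, ± the standard error (SE) from limma, a linear model fitted to all 12 arrays at once. Its p-values were adjusted over all 19938 genes, with 0.05 as the threshold for a call. The median SE of a change was 0.112. With 2 arrays on each side the smallest two-sided p of an exact permutation test is 0.33, so each call rests on the pooled spread of the model.

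In the clipped RV 642 genes were higher and 506 were lower than in sham RV by limma, together 1148 of 19938 (5.76%, with 3.22% higher and 2.54% lower). These shares are the background for the counts of list members below. At an unadjusted p below 0.05 there were 5916 of the 19938 genes, which is the background for the unadjusted counts of this comparison. Large changes went almost wholly upward: of 79 genes that passed and differed by 2-fold or more, 75 were higher and 4 were lower in the clipped RV. Both clipped arrays lay above both sham arrays for 5080 genes (25.5%) and below them for 7108 genes (35.7%). In tissue pieces a change in the number of cells of one kind and a change in RNA per cell cannot be told apart.

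The direction of the calls moved with the level of the gene. Among the 4985 genes with the lowest mean levels (2.26 to 5.30), 8 were higher and 127 were lower in the clipped RV, and the median change was -0.14. Among the 4985 genes with the highest mean levels (8.25 to 14.27), 350 were higher and 79 were lower, and the median change was 0.09. After cyclic loess scaling of the arrays, which evens out such level-dependent shifts, both medians were within 0.01 of 0, and 535 genes passed, 320 higher and 215 lower, of which 478 had passed before. Of the 506 lower genes, 154 had both group means at or below 5.79, the highest array median of the probe sets with no listed gene, against 13 of the 642 higher genes and 6144 of all 19938.

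The number of calls also depended on single arrays. Without PAC array 2 only 3 genes passed, and without sham array 2 also 3, while 51 passed without sham array 1 and 796 without PAC array 1. Each such fit sets 1 array against 2 and takes the spread of the lone array from the other groups. In the plot of levels by array, the clipped arrays of all 12 genes lie on one side of the sham arrays, by under 0.1 for Myh6.

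**Figure D1:**
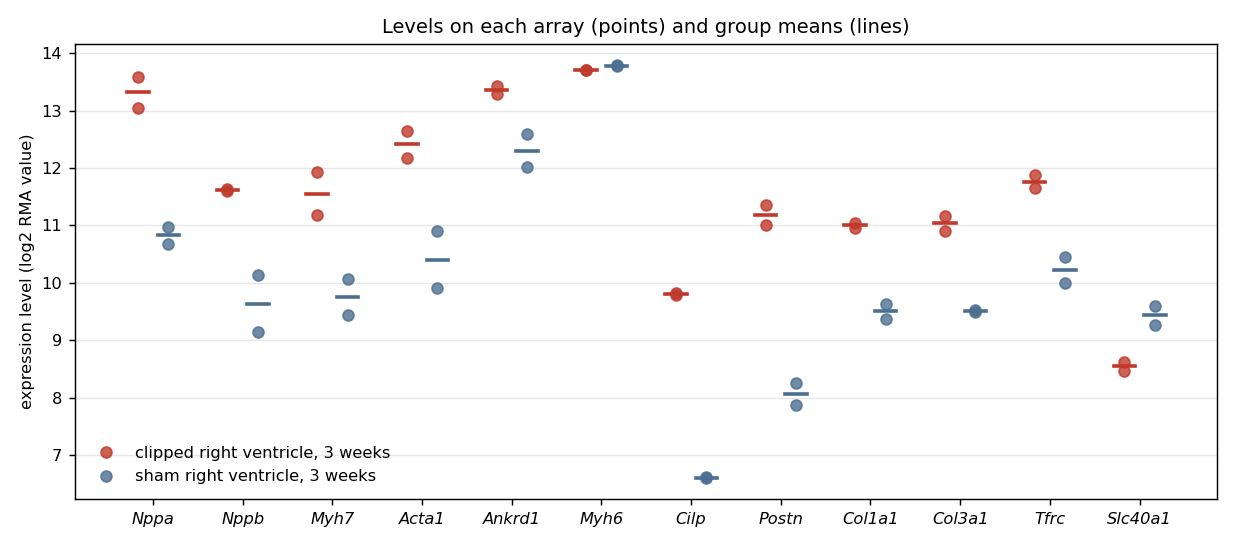
Deposited log2 level of 12 genes on each of the 4 arrays, with the 2 clipped RV arrays at the left (red) and the 2 sham RV arrays at the right (blue); points are arrays and lines are group means (n = 2 each). Nppa stands at 13.05 and 13.59 in the clipped RV against 10.98 and 10.68 in sham RV, and Slc40a1 at 8.63 and 8.47 against 9.60 and 9.27.

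Genes that respond to mechanical load were higher in the clipped RV. Of 24 measured genes of this list 7 rose and none fell, the median change was 0.42 (all genes, -0.05), and in 17 both clipped arrays lay above both sham arrays. Nppa, the gene of atrial natriuretic peptide and also an atrial muscle marker, stood at 13.05 and 13.59 in clipped RV, against 10.98 and 10.68 in sham RV. The groups were apart by more than 2 units, and the change was 2.49 ± 0.38, or 5.6-fold (limma adjusted p = 0.018). Nppb, the gene of brain natriuretic peptide, read 11.64 and 11.60 in clipped RV, against 9.14 and 10.13 in sham RV. The clipped arrays were nearly equal and both higher, the sham arrays differed by about 1 unit, and the change was 1.99 ± 0.42 (adjusted p = 0.033).

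Contractile isoforms typical of the fetal heart rose as well. Myh7, the slow beta myosin heavy chain, had levels of 11.18 and 11.93 in clipped RV, against 9.45 and 10.06 in sham RV. Its change of 1.8 ± 0.42 (3.48-fold, adjusted p = 0.040) missed the threshold after cyclic loess scaling (1.76, adjusted p = 0.061). Acta1, the skeletal alpha actin, had levels of 12.65 and 12.18 in clipped RV, against 9.91 and 10.90 in sham RV, a change of 2.01 ± 0.31 (4.03-fold, adjusted p = 0.018). In both genes the lower clipped array was well above the higher sham array. Myh6, the adult alpha myosin heavy chain, gave 13.70 and 13.71 in clipped RV and 13.80 and 13.77 in sham RV, and its change of -0.08 ± 0.07 did not pass (adjusted p = 0.49). Myh6 lay between 13.67 and 13.80 on all 12 arrays, and the sensitivity of the arrays at such high levels was not tested.

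The stretch-responsive ankyrin repeat proteins of the Z-disc and titin filament moved in the same direction. Ankrd1 stood at 13.29 and 13.42 in clipped RV, against 12.01 and 12.59 in sham RV (1.05 ± 0.22, adjusted p = 0.032). Ankrd23 stood at 11.49 and 11.53 in clipped RV, against 10.39 and 10.82 in sham RV (0.91 ± 0.19, adjusted p = 0.032). The sham arrays of both genes were more spread than the clipped arrays, and the groups did not overlap. After cyclic loess scaling 4 of the 24 load genes passed, and Ankrd23 was not among them (adjusted p = 0.052).

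The sequences upstream of 4 of these load genes are shown because they rose together and because 2 short motifs known from muscle promoters can be looked up in them. Each run is the 250 bases before the RefSeq transcription start (build GRCm38.p6), read 5′ to 3′ on the strand of the gene. Capitals mark the MCAT motif (CATTCC on either strand), which binds TEAD factors, and the CArG box, which binds serum response factor. The motifs do not overlap in these sequences.
Nppa (chr4:148000472-148000721, plus strand): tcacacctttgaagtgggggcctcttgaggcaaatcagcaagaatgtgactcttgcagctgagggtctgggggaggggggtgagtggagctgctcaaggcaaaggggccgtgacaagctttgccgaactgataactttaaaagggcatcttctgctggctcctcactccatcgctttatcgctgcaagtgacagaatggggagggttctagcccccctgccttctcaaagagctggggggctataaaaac
Nppb (chr4:147985650-147985899, plus strand): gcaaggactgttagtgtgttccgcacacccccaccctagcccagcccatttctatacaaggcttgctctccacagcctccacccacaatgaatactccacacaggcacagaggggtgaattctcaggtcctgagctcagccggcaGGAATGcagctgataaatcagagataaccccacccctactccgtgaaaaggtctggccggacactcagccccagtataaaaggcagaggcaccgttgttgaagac
Myh7 (chr14:54994627-54994876, minus strand): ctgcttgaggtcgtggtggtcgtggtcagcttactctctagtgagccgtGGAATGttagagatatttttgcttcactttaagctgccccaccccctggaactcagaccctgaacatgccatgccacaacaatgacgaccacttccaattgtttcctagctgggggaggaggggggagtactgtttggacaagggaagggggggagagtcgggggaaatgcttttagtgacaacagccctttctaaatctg
Acta1 (chr8:123894776-123895025, minus strand): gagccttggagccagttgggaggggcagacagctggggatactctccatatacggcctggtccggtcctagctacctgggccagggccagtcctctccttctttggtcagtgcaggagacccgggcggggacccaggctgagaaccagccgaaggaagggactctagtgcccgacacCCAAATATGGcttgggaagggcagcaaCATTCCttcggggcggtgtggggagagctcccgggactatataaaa
Nppb holds 1 MCAT motif, 105 bases before the start, and Myh7 holds 1, 201 bases before the first of its 2 start sites. The 250 bases before the other Myh7 start site, not printed here, hold neither motif. Acta1 holds both, with the CArG box 73 bases and the MCAT motif 46 bases before the start, and the Nppa window holds neither. Among genes tested, 15614 matched a promoter in the table, of which 2060 (13.2%) hold MCAT and 227 (1.45%) a CArG box. Of the 642 higher genes 499 matched, with 70 (14%) holding MCAT and 8 (1.6%) a CArG box, close to the share of all promoters. Of the load list 21 of 24 matched, with 6 holding MCAT and 3 a CArG box. A match describes the letters and does not show that a factor binds there.

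Few genes of the sarcomere itself passed. Of 21 structural genes 1 rose and none fell, with a median change of 0.04. That gene was Mybpc3, cardiac myosin-binding protein C, at 13.17 and 13.14 in clipped RV, against 12.77 and 12.82 in sham RV (0.36 ± 0.08, adjusted p = 0.034). Tnni3, cardiac troponin I, lay lower on both clipped arrays, at 12.69 and 12.69 against 13.01 and 13.03 on the sham arrays, and did not pass (-0.33 ± 0.09, adjusted p = 0.057). Myl2, the ventricular light chain, read 13.54 and 13.44 in clipped RV and 13.62 and 13.66 in sham RV (adjusted p = 0.24). With Myl2 at 13.44 or above on all 4 arrays, the defining marker of ventricular muscle was present in every piece. A count of 1 of 21 is near the share of all genes called. The mean level of the 21 genes was 12.42 to 12.46 on the 4 arrays, and sensitivity at such high levels was not tested.

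None of the 18 measured genes of calcium cycling passed limma in either direction (4 at an unadjusted p below 0.05), and their median change was -0.03. Closest to the threshold was Slc8a1, the sodium-calcium exchanger, at 11.01 and 11.11 in clipped RV, against 10.78 and 10.77 in sham RV (0.29 ± 0.09, adjusted p = 0.071). Ryr2, the calcium release channel, stood at 12.54 and 12.44 in clipped RV, against 12.66 and 12.68 in sham RV (adjusted p = 0.20). Both clipped arrays were higher for Slc8a1 and lower for Ryr2, by small amounts.

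Ion channels and connexins leaned downward. Of 22 genes 1 fell and none rose, the median change was -0.20, and in 16 both clipped arrays were below both sham arrays (background 35.7%). Kcnj5, a subunit of the acetylcholine-activated potassium channel, had levels of 8.39 and 8.29 in clipped RV, against 8.89 and 8.71 in sham RV (-0.46 ± 0.12, adjusted p = 0.047). Its partner subunit Kcnj3 (-0.42 ± 0.12, adjusted p = 0.063) and Kcnd2, of the transient outward current (-0.66 ± 0.19, adjusted p = 0.060), did not pass. In the 23 genes of adhesion and the intercalated disc, Dsg2 (desmoglein, -0.58 ± 0.14) and Ctnna3 (alpha-T-catenin, -0.36 ± 0.09) fell, and Lims2 (0.48 ± 0.09), an integrin-linked adaptor, rose. Lims2 did not pass after cyclic loess scaling.

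**Figure D2:**
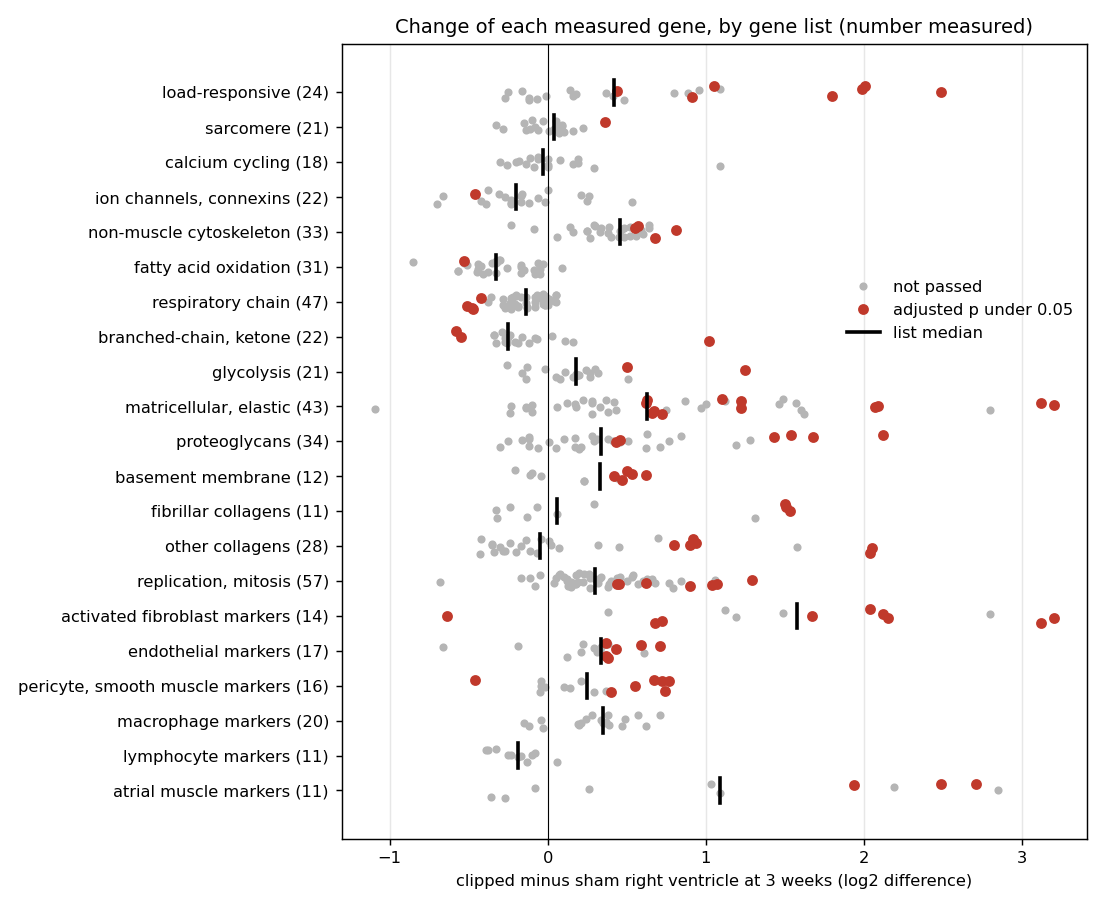
Change in each measured member of 21 gene lists (log2, PAC minus sham RV at 3 weeks, n = 2 arrays each); each point is a gene, red points passed at a limma adjusted p of 0.05, and black bars are list medians. Cilp and Postn, which had the largest increases that passed, are in both the matricellular list (median 0.63) and the activated fibroblast markers (median 1.58). The atrial muscle markers have a median of 1.09, and fatty acid oxidation genes (median -0.33) lie mostly left of 0.

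Fuel metabolism leaned lower in its mitochondrial part, with few genes past the threshold. Of 31 genes of fatty acid oxidation 1 fell and none rose, the median change was -0.33, and in 23 both clipped arrays were below both sham arrays. Etfb, a subunit of the flavoprotein that passes electrons from acyl-CoA dehydrogenases to the respiratory chain, stood at 11.87 and 11.85 in clipped RV, against 12.44 and 12.35 in sham RV (-0.53 ± 0.12, adjusted p = 0.035). Acaa2, the last enzyme of mitochondrial beta-oxidation, stood at 12.24 and 12.05 in clipped RV, against 12.77 and 12.66 in sham RV (-0.57 ± 0.16, adjusted p = 0.063). Both genes were lower on each clipped array. One call in 31 is near the share of all genes called lower, while the arrays were separated downward for more of the list than of all genes.

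Of 47 respiratory chain genes 4 fell and none rose, with a median change of -0.14, and 30 had both clipped arrays below both sham arrays while none had them above. Cox4i1, a subunit of complex IV, had levels of 12 and 11.93 in clipped RV, against 12.39 and 12.38 in sham RV (-0.42 ± 0.09, adjusted p = 0.036). Cox8b, another complex IV subunit, had levels of 12.60 and 12.46 in clipped RV, against 12.91 and 13.08 in sham RV (-0.47 ± 0.10, adjusted p = 0.032). Uqcrq of complex III changed by -0.48 ± 0.11 and Ndufb8 of complex I by -0.51 ± 0.11, each with an adjusted p of 0.035. All 4 also passed after cyclic loess scaling. None of the 25 citrate cycle genes passed limma (4 at an unadjusted p below 0.05), with 1 lower after cyclic loess scaling. Of 21 measured genes of mitochondrial biogenesis 1 fell and none rose, near the share of all genes called, with a median change of -0.02. The gene that passed was Esrra, a nuclear receptor that drives mitochondrial genes, which fell by 0.42 (SE 0.10, adjusted p = 0.044).

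In the breakdown of ketones and branched-chain amino acids 1 of 22 genes rose and 2 fell. Bdh1, which interconverts the ketone bodies acetoacetate and 3-hydroxybutyrate, stood at 10.56 and 10.50 in clipped RV, against 9.36 and 9.67 in sham RV. This difference of 1.02 ± 0.16 (2.02-fold, adjusted p = 0.020) was several times the gap between replicate arrays. Bcat2, the mitochondrial branched-chain aminotransferase, went the other way, at 9.14 and 9.07 in clipped RV, against 9.71 and 9.60 in sham RV (-0.55 ± 0.09, adjusted p = 0.021). Bckdhb, a subunit of the next enzyme of that pathway, also fell (-0.58 ± 0.15, adjusted p = 0.046).

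Glucose use was marked by isoforms of phosphofructokinase, the committed step of glycolysis. Pfkp, the platelet isoform, stood at 10.05 and 10.23 in clipped RV, against 9.01 and 8.78 in sham RV, a rise of 1.25 ± 0.23 (2.38-fold, adjusted p = 0.025). Pfkl, the liver isoform, stood at 9.68 and 9.84 in clipped RV, against 9.31 and 9.20 in sham RV (0.50 ± 0.09, adjusted p = 0.025). They were the 2 genes that rose of 21 in this list, whose median change was 0.18. Of 17 genes of glycogen metabolism 2 rose and 1 fell, with a median change of -0.02, and 1 was higher and 1 lower after cyclic loess scaling. Ugp2, which makes UDP-glucose (0.64 ± 0.10, adjusted p = 0.018), and Ppp1r3c, a targeting subunit of the phosphatase that favours glycogen synthesis (0.64 ± 0.14, adjusted p = 0.033), rose. Phkg1, the catalytic subunit of muscle phosphorylase kinase, which triggers glycogen breakdown, fell to 7.56 and 7.41 in clipped RV, against 8.44 and 8.38 in sham RV (-0.93 ± 0.14, adjusted p = 0.018).

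Iron transport showed a pair of opposite changes. Tfrc, the transferrin receptor that brings iron into cells, had levels of 11.88 and 11.65 in clipped RV, against 10 and 10.45 in sham RV. It rose by 1.54 ± 0.15 (2.9-fold, adjusted p = 0.0071) and passed in all 4 fits that each left out 1 of the arrays compared, with changes between 1.31 and 1.76. Slc40a1, ferroportin, the only known exporter of iron, had levels of 8.63 and 8.47 in clipped RV, against 9.60 and 9.27 in sham RV. It fell by 0.88 (SE 0.19, 1.84-fold higher in sham, adjusted p = 0.034), and its groups did not overlap.

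Besides Tfrc, only Kctd12b passed in all 4 of these fits. It stood at 8.53 and 8.51 in clipped RV, against 7.54 and 7.50 in sham RV, a change of 1.00 ± 0.08, with the smallest adjusted p of all genes (0.0024). Nav3, neuron navigator 3, passed in 3 of the 4 fits, at 8.21 and 8.24 in clipped RV, against 7.03 and 7.27 in sham RV (1.08 ± 0.11, adjusted p = 0.0071). The replicate arrays of these genes lay close together and the groups far apart. Fuca2, a fucosidase, passed in 2 of the 4 fits, at 11.46 and 11.57 in clipped RV, against 10.42 and 10.45 in sham RV (1.08 ± 0.11, adjusted p = 0.0071). Klhl4, Cd34, Itga6, Naalad2, Gnb4 and Adamts9 passed in 2 fits as well, with changes between 0.67 and 1.20, and all 10 genes passed after cyclic loess scaling.

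The extracellular matrix held the largest group of increases. Over 7 lists of matrix genes, 41 of 198 measured members rose, 2 fell and the median change was 0.29. After cyclic loess scaling 19 rose and 1 fell. These lists held 20 of the 75 genes that were higher by 2-fold or more (26.7%), whereas they held 0.993% of all genes tested. All 55 lists together held 41 of the 75 (54.7%), against 6.11% of all genes tested. The lists were chosen with earlier results of these data known, so these shares describe the lists and are no independent support. The 2 genes that fell were the inhibitor Timp4 and P3h4, a partner of collagen-modifying enzymes.

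Matricellular and elastic-fibre genes had 12 of 43 members higher, none lower and a median change of 0.63, and 32 had both clipped arrays above both sham arrays (background 25.5%). Cilp, a matrix protein of cartilage and fibrotic heart, stood at 9.79 and 9.82 in clipped RV, against 6.62 and 6.60 in sham RV, the largest increase of all that passed (3.20 ± 0.57, 9.17-fold, adjusted p = 0.025). Postn, periostin, made by activated fibroblasts, stood at 11.01 and 11.35 in clipped RV, against 7.87 and 8.25 in sham RV (3.12 ± 0.51, adjusted p = 0.020). For both, replicate arrays differed by less than 0.5 and the groups by about 3 units. Sparc, a collagen-binding glycoprotein, stood at 11.90 and 12.01 in clipped RV, against 10.79 and 10.91 in sham RV (1.10 ± 0.20, adjusted p = 0.025). Svep1 (1.22 ± 0.24) and Fbln2, fibulin 2 (1.22 ± 0.24), each rose with an adjusted p of 0.031. After cyclic loess scaling 7 of the 43 passed.

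In the proteoglycans 6 of 34 genes rose and none fell, with a median change of 0.34. Lum, lumican, which binds and spaces collagen fibrils, had levels of 10.51 and 10.46 in clipped RV, against 9.02 and 8.86 in sham RV (1.54 ± 0.21, adjusted p = 0.017). Aspn, asporin, had levels of 10.59 and 10.64 in clipped RV, against 8.76 and 8.23 in sham RV (2.12 ± 0.29, adjusted p = 0.017). In each of these genes the clipped arrays agreed within 0.1 and lay above both sham arrays. Vcan, the large proteoglycan versican (1.68 ± 0.34), and Bgn, biglycan (1.43 ± 0.30), also rose, as did Hspg2, perlecan (0.43 ± 0.10), and Sdc3 (0.46 ± 0.12), which are lost after cyclic loess scaling.

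Among 11 fibrillar collagen genes 3 rose, none fell, and the median change was 0.06. Col3a1 stood at 10.91 and 11.16 in clipped RV, against 9.49 and 9.53 in sham RV (1.53 ± 0.31, adjusted p = 0.031). Col1a1, the main chain of type I collagen, stood at 10.96 and 11.05 in clipped RV, against 9.38 and 9.63 in sham RV (1.5 ± 0.38, adjusted p = 0.046). Col1a2, its partner chain, rose by 1.51 ± 0.36 (adjusted p = 0.042). Both chains of type I missed the threshold after cyclic loess scaling, with adjusted p of 0.072 and 0.065, whereas Col3a1 passed. Col5a2 stood at 8.40 and 8.67 in clipped RV, against 7.24 and 7.21 in sham RV, and did not pass (1.31 ± 0.37, adjusted p = 0.059). Of the 11 genes, 4 had both clipped arrays below the sham arrays, among them Col11a2 (-0.32 ± 0.12, adjusted p = 0.10) and Col27a1 (-0.33 ± 0.13, adjusted p = 0.12), neither of which passed.

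Collagens of other classes had 6 of 28 genes higher, none lower and a median change of -0.05, which was 0.04 after cyclic loess scaling. Col14a1, which coats collagen fibrils, gave the largest of these changes (2.05 ± 0.38, adjusted p = 0.026), at 9.30 and 9.98 in clipped RV, against 7.59 and 7.59 in sham RV. Col4a1 and Col4a2 form the network of basement membranes. Col4a1 had levels of 9.85 and 9.90 in clipped RV, against 8.90 and 8.96 in sham RV (0.94 ± 0.17, adjusted p = 0.025). Its partner changed by 0.90 ± 0.16 (adjusted p = 0.025), and both passed after cyclic loess scaling. Of 12 other basement membrane genes 5 rose and none fell: Lamb1 and Lama4 (laminin chains), Nid1 and Nid2 (nidogens that link laminin to type IV collagen) and Agrn, with changes between 0.42 and 0.62. None of these 5 passed after cyclic loess scaling.

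Enzymes that process and degrade matrix followed in smaller numbers. Of 43 proteases and inhibitors 7 rose and 1 fell, with 4 and 0 after cyclic loess scaling. Mmp2, gelatinase A, stood at 10.36 and 10.52 in clipped RV, against 9.19 and 9.13 in sham RV (1.28 ± 0.24, adjusted p = 0.027). Timp4, an inhibitor of metalloproteinases abundant in heart, fell to 7.24 and 7.47 in clipped RV, against 8.35 and 8.02 in sham RV (-0.83 ± 0.21, adjusted p = 0.047). The groups of both genes were apart on every array, in opposite directions, and Timp4 missed the threshold after cyclic loess scaling (adjusted p = 0.055). Of 27 genes of collagen folding and cross-linking 2 rose and 1 fell (all genes, 3.22% higher and 2.54% lower), though 20 had both clipped arrays above both sham arrays (background 25.5%). The 39 genes of secretory transport were alike, with 30 above and 2 passed (Sec63 and Copb1, 0.39 each), neither of which passed after cyclic loess scaling.

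Of 18 integrin and collagen receptor genes 3 rose and 1 fell. Itga6, a laminin receptor subunit, had levels of 10.02 and 10.03 in clipped RV, against 9.36 and 9.26 in sham RV (0.72 ± 0.09, adjusted p = 0.017). Ddr2, a collagen receptor kinase of fibroblasts, rose by 0.51 ± 0.11, and Itga1, a collagen receptor subunit, by 0.38 ± 0.09. Itgb6 fell by 0.39 (SE 0.09, adjusted p = 0.043). After cyclic loess scaling Itga6 and Itgb6 passed.

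Of 43 genes of transforming growth factor beta, bone morphogenetic protein and activin signalling 5 rose and none fell. Fstl1, a secreted follistatin-like protein, stood at 10.51 and 10.86 in clipped RV, against 8.90 and 9.0 in sham RV (1.74 ± 0.30, adjusted p = 0.023). Tgfb3, a ligand, stood at 9.10 and 9.15 in clipped RV, against 7.90 and 7.88 in sham RV (1.24 ± 0.29, adjusted p = 0.041). The clipped arrays of Tgfb3 agreed within 0.1 and were both higher by more than 1 unit. The receptor gene Tgfbr1 (0.77 ± 0.17), the SMAD co-repressor Skil (0.88 ± 0.23) and Id3, a target of bone morphogenetic proteins (0.59 ± 0.12), also rose. After cyclic loess scaling Fstl1 and Id3 passed, and Tgfb3, Tgfbr1 and Skil did not.

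Secreted inhibitors of Wnt signalling went both ways. Of 46 Wnt genes 3 rose and 4 fell, with 0 and 1 after cyclic loess scaling. Frzb, a decoy for Wnt, stood at 7.47 and 8.27 in clipped RV, against 6.04 and 6.03 in sham RV (1.84 ± 0.43, adjusted p = 0.040). Sfrp2, of the same family, stood at 9.37 and 9.80 in clipped RV, against 7.38 and 7.48 in sham RV (2.15 ± 0.55, adjusted p = 0.048). Dkk3 also rose (1.94 ± 0.50, adjusted p = 0.047). Wif1, another inhibitor, fell to 6.95 and 7.06 in clipped RV, against 7.77 and 7.44 in sham RV (-0.60 ± 0.13, adjusted p = 0.035). Wnt4, a ligand, fell to 7.45 and 7.22 in clipped RV, against 7.83 and 7.87 in sham RV, and was the one that passed after cyclic loess scaling too (-0.52 ± 0.10, adjusted p = 0.031). None of these groups overlapped.

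Vascular and hormonal genes were similarly divided, with 5 of 41 higher and 4 lower (2 and 5 after cyclic loess scaling). Corin, the protease that activates atrial natriuretic peptide, fell to 10.64 and 10.81 in clipped RV, against 11.38 and 11.20 in sham RV (-0.56 ± 0.11, adjusted p = 0.031), whereas Nppa rose. Angpt1, a ligand that stabilises vessels through the receptor Tek, fell to 8.69 and 9.15 in clipped RV, against 9.85 and 9.52 in sham RV (-0.77 ± 0.17, adjusted p = 0.037). Agt, angiotensinogen, fell as well (-0.53 ± 0.10, adjusted p = 0.025). Calcrl, a receptor subunit for adrenomedullin and CGRP, rose (0.92 ± 0.19, adjusted p = 0.032), as did Nrp1, a co-receptor for VEGF (0.41 ± 0.08), and Gucy1b1 (0.52 ± 0.12), a subunit of the nitric oxide receptor. Of these 6, Gucy1b1 did not pass after cyclic loess scaling.

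Of 36 other growth factor genes 3 rose and 1 fell (all genes, 3.22% higher and 2.54% lower). Pdgfrb (0.55 ± 0.10), Pdgfd (0.49 ± 0.11) and Igfbp7 (1.05 ± 0.22) were higher and Erbb4, the neuregulin receptor of cardiomyocytes, was lower (-0.45 ± 0.09). Of the 36, 1 was higher and 2 were lower after cyclic loess scaling: Pdgfd and Igfbp7 missed the threshold, and the ligand gene Pdgfa passed as lower (-0.38, adjusted p = 0.038). Cytokine genes gave 2 higher and 2 lower of 34, beside the same shares of all genes. Il33, an alarmin, stood at 6.90 and 7.46 in clipped RV, against 6.33 and 6.02 in sham RV (1.00 ± 0.21, adjusted p = 0.033). Cxcl12, a chemokine of stromal cells, stood at 10.13 and 10.26 in clipped RV, against 9.38 and 9.62 in sham RV (0.70 ± 0.13, adjusted p = 0.028). The clipped arrays were above the sham arrays in both. Ccl11, eotaxin, fell to 6.24 and 6.38 in clipped RV, against 7.19 and 7.11 in sham RV (-0.84 ± 0.11, adjusted p = 0.017), and Cxcl14 fell too (-0.59 ± 0.13, adjusted p = 0.033).

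Protein breakdown genes included 3 higher and 1 lower of 23 (all genes, 3.22% higher and 2.54% lower). Fbxo32, the muscle ubiquitin ligase atrogin-1, had levels of 9.88 and 10.10 in clipped RV, against 9.60 and 9.54 in sham RV (0.42 ± 0.10, adjusted p = 0.044). Fbxo30, another muscle ubiquitin ligase subunit (0.43 ± 0.11), and Bnip3, a mitophagy receptor (0.52 ± 0.13), rose, and Map1lc3a, a core autophagosome protein, fell (-0.37 ± 0.09, adjusted p = 0.039). The 3 increases did not pass after cyclic loess scaling. Of 30 redox and iron genes 2 rose and 2 fell, beside the same shares of all genes. Among those that fell was Sod1, the cytosolic superoxide dismutase, at 11.12 and 11.11 in clipped RV, against 11.56 and 11.51 in sham RV (-0.42 ± 0.08, adjusted p = 0.028).

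Among the cells between the muscle fibres, lists of fibroblast, endothelial, pericyte and smooth muscle markers held genes that rose in the clipped RV. Of 14 markers of activated fibroblasts 8 rose, 1 fell and 13 had both clipped arrays above both sham arrays, with a median change of 1.58 and a mean level of 8.67 and 8.78 on the clipped arrays against 7.14 and 7.15 on the sham arrays. Most of these markers are also members of the matrix lists: Postn, Cilp, Comp, Thbs4, Ltbp2, Fap, Col8a1, Aspn and Fmod. Sfrp2, Acta2 and Meox1 are on other lists too, so the counts of this list largely repeat calls counted elsewhere. Meox1, a transcription factor of activated cardiac fibroblasts, stood at 8.80 and 8.80 in clipped RV, against 7.05 and 7.21 in sham RV (1.67 ± 0.36, adjusted p = 0.033). Fap, fibroblast activation protein, stood at 6.44 and 6.30 in clipped RV, against 5.67 and 5.71 in sham RV (0.68 ± 0.13, adjusted p = 0.028). Acta2, the smooth muscle actin of myofibroblasts and vessels, rose by 0.72 ± 0.16 and missed the threshold after cyclic loess scaling (adjusted p = 0.061). Chad, chondroadherin, was the member that fell (-0.64 ± 0.16, adjusted p = 0.044), and it is also on the cartilage list. With cyclic loess scaling 5 of the 14 were higher and none lower, so that Chad, Col8a1 and Sfrp2 missed the threshold along with Acta2.

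Of 15 general fibroblast markers 7 rose and 1 fell, with 4 higher and none lower after cyclic loess scaling. Dcn, Lum, Col1a1, Col1a2, Col3a1 and Mfap5 of this list are also members of the matrix lists. Pi16, a marker of adventitial fibroblasts, stood at 8.47 and 8.63 in clipped RV, against 7.17 and 7.16 in sham RV (1.39 ± 0.21, adjusted p = 0.018). Emp1 and Fibin, which belong to no list, were among the 20 largest increases and had small gaps between replicate arrays. Emp1, a membrane protein of the PMP22 family, stood at 10.58 and 10.72 in clipped RV, against 8.67 and 8.68 in sham RV (1.97 ± 0.29, adjusted p = 0.018). Fibin, a secreted factor first described in zebrafish fin development, stood at 7.80 and 7.72 in clipped RV, against 5.77 and 5.74 in sham RV (2.01 ± 0.34, adjusted p = 0.021).

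Endothelial markers rose by smaller amounts, with 6 of 17 higher, none lower and a median change of 0.34. Cdh5, the cadherin of endothelial junctions, had levels of 10.68 and 10.74 in clipped RV, against 10.32 and 10.36 in sham RV (0.37 ± 0.08, adjusted p = 0.033). Sox17, an arterial transcription factor, rose by 0.71 ± 0.15 and was the only 1 of the 6 that passed after cyclic loess scaling. Pericyte and smooth muscle markers had 6 of 16 higher and 1 lower. Vtn, vitronectin, had levels of 9.69 and 9.5 in clipped RV, against 8.85 and 8.86 in sham RV (0.74 ± 0.12, adjusted p = 0.018). Rgs5 and Higd1b, both pericyte markers, rose by 0.40 ± 0.08 and 0.67 ± 0.12, and Lmod1, a smooth muscle protein, fell (-0.46 ± 0.10, adjusted p = 0.032). Of the 16, 4 were higher and none lower after cyclic loess scaling, and Lmod1 (adjusted p = 0.051) and Acta2 missed the threshold.

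Leukocyte markers had no member past the limma threshold. An unadjusted p below 0.05 was found for 5 of 20 macrophage, 4 of 11 lymphocyte and 3 of 10 antigen-presenting markers. Over all 19938 genes it was found for 5916. For 14 of 20 macrophage markers both clipped arrays were above both sham arrays, with a median change of 0.35. That median was 0.46 without PAC array 1 and 0.18 without PAC array 2, and 19 of the 20 were higher on PAC array 2 than on PAC array 1. Adgre1, which encodes F4/80, stood at 8.06 and 8.11 in clipped RV, against 7.64 and 7.55 in sham RV (0.49 ± 0.18, adjusted p = 0.11). The lymphocyte markers had a median of -0.19 (-0.03 after cyclic loess scaling) and the antigen-presenting markers -0.24. Cd74, the class II invariant chain, stood at 8.46 and 8.78 in clipped RV, against 9.01 and 9.29 in sham RV (-0.53 ± 0.17, adjusted p = 0.082). Both clipped arrays of Cd74 were lower than both sham arrays. No marker of granulocytes and mast cells (12 genes), Schwann and neural cells (8) or the epicardium (13) passed limma, with 1, 3 and 3 at an unadjusted p below 0.05 and medians of -0.09, -0.19 and -0.18.

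Genes of the non-muscle cytoskeleton, which are used by fibroblasts, vessel cells and leukocytes alike, were higher almost throughout. Of 33 genes 4 rose and none fell, the median change was 0.46, and in 31 both clipped arrays were above both sham arrays. Marcks, an actin-binding membrane protein, had levels of 9.92 and 9.85 in clipped RV, against 9.06 and 9.10 in sham RV (0.81 ± 0.12, adjusted p = 0.018). Vim, the intermediate filament vimentin, had levels of 11.88 and 12.05 in clipped RV, against 11.24 and 11.34 in sham RV (0.68 ± 0.17, adjusted p = 0.045). Marcks passed after cyclic loess scaling, while Vim, Cap1 and Cnn3 did not.

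Atrial muscle markers differed between the clipped arrays. Of 11 such markers 3 rose and none fell, with a mean level of 8.71 and 9.60 on the clipped arrays against 8.09 and 7.70 on the sham arrays. Myl4, the atrial essential light chain, stood at 10.03 and 10.92 in clipped RV, against 8.35 and 7.16 in sham RV (2.71 ± 0.66, adjusted p = 0.043). Myl7, the atrial regulatory light chain, stood at 9.48 and 10.28 in clipped RV, against 8.13 and 5.93 in sham RV, and did not pass (2.85 ± 0.80, adjusted p = 0.060). Both were above sham on each clipped array, and the sham arrays were themselves far apart. Bmp10, a growth factor of the right atrium that was picked out after its values were seen, stood at 4.52 and 8.79 in clipped RV, against 4.28 and 4.64 in sham RV. Only PAC array 2 was high, and the other 3 arrays were below 5.79. Without PAC array 2 the change in Nppa was 2.22 (adjusted p = 0.16) and that in Myl4 2.27 (adjusted p = 0.26), and the part of atrial tissue in the rise of Nppa, Myl4 and Dkk3 was not tested.

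Interferon response genes also set PAC array 2 apart. Of 20 measured genes all were higher on PAC array 2 than on PAC array 1, 16 of them by at least 0.5, with a median difference of 0.83 (sham array 2 less array 1, 0.02). Over all genes 9954 of 19938 were higher on PAC array 2, 347 (1.74%) by at least 0.5. Ifit3 stood at 6.94 and 8.41 in clipped RV, against 6.50 and 6.52 in sham RV (1.17 ± 0.34, adjusted p = 0.064). Ifit2 stood at 7.59 and 8.73 in clipped RV, against 7.11 and 7.32 in sham RV (0.94 ± 0.29, adjusted p = 0.073). In these antiviral genes PAC array 1 was little above sham and PAC array 2 well above it. Rsad2, viperin, was the member that passed, at 8.57 and 8.82 in clipped RV, against 7.89 and 7.80 in sham RV (0.85 ± 0.12, adjusted p = 0.017). The list's median change of 0.52 was 0.92 without PAC array 1 and 0.08 without PAC array 2.

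**Figure D3:**
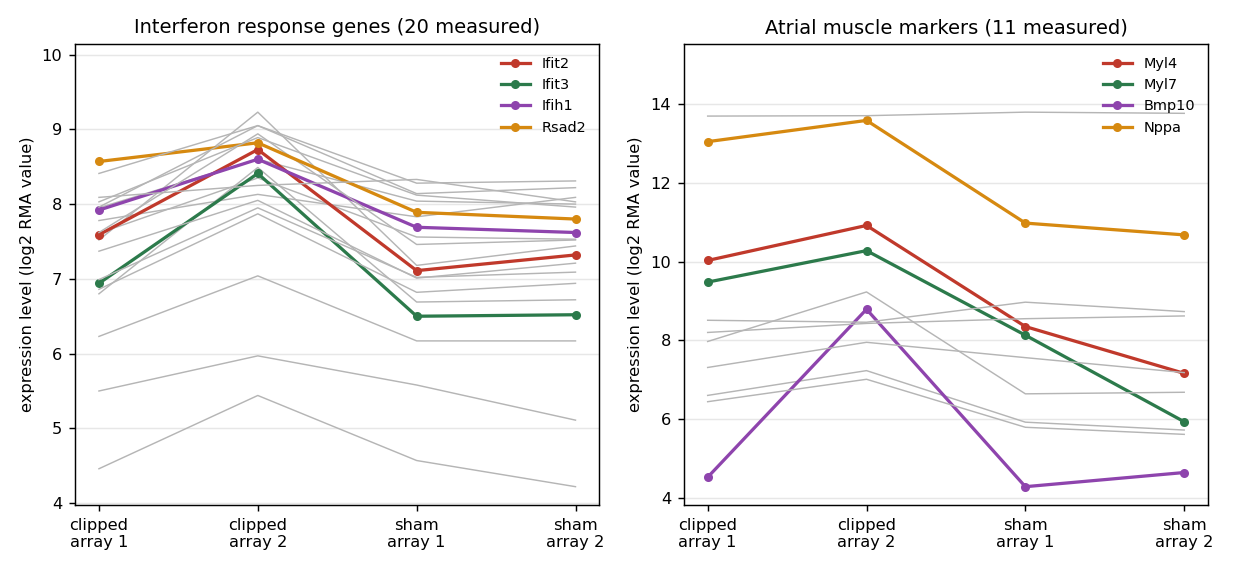
Deposited log2 level of each measured interferon response gene (left, 20 genes) and atrial muscle marker (right, 11 genes) on clipped RV arrays 1 and 2 and sham RV arrays 1 and 2; each line is a gene, and the coloured ones are named. All 20 interferon genes are higher on clipped array 2 than on clipped array 1, and Bmp10 reads 8.79 on clipped array 2 against 4.52 on clipped array 1.

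Genes of DNA replication and mitosis were higher in the clipped RV at 3 weeks. Of 57 genes 7 rose and none fell, the median change was 0.30, and in 43 both clipped arrays were above both sham arrays. Top2a, a topoisomerase of dividing cells, stood at 7.23 and 7.08 in clipped RV, against 6.02 and 6.15 in sham RV (1.07 ± 0.24, adjusted p = 0.037). Prc1, which bundles the midzone microtubules of the spindle, stood at 6.40 and 6.01 in clipped RV, against 4.85 and 4.98 in sham RV (1.29 ± 0.26, adjusted p = 0.031). Ccnd2, a cyclin of the G1 phase, stood at 11.33 and 11.46 in clipped RV, against 10.70 and 10.84 in sham RV (0.62 ± 0.12, adjusted p = 0.031). The groups were apart in all of these, and 6 genes of the list passed after cyclic loess scaling.

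The 3-week clipped RV was next set beside the clipped RV of the other times. No sham RV was taken at 1 or 6 weeks and the animals differ in age, so these comparisons show clipped arrays only. Against 1 week 11 genes passed (0.0552%), 5 higher and 6 lower at 3 weeks, and 6 weeks against 3 weeks gave 4 (0.0201%), 2 higher and 2 lower. At an unadjusted p below 0.05 the numbers were 1586 and 953. Most genes that were high against sham at 3 weeks did not pass between times: Nppa differed by 0.01 ± 0.38 between 3 weeks and 1 week, and Postn by 0.03 ± 0.51. The mitotic list had a median of -0.41 for 3 weeks less 1 week and -0.15 for 6 weeks less 3 weeks, with no member past the threshold. Top2a had levels of 7.85 and 8.81 at 1 week, 7.23 and 7.08 at 3 weeks and 6.64 and 6.37 at 6 weeks.

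Bdh1 differed between times. Its levels were 9.12 and 9.37 at 1 week, 10.56 and 10.50 at 3 weeks and 9.93 and 10.44 at 6 weeks, and it was higher at 3 weeks than at 1 week (1.28 ± 0.16, adjusted p = 0.030). The 1-week arrays were at the level of sham RV (9.36 and 9.67). Ddc, the decarboxylase that makes dopamine and serotonin, was lower at 3 weeks than at 1 week (-1.38 ± 0.16, adjusted p = 0.021), and Epn3, an endocytic adaptor, likewise (-1.01 ± 0.09, adjusted p = 0.0048). Slc38a1, a glutamine transporter, had levels of 8.14 and 8.5 at 1 week, 7.08 and 7.35 at 3 weeks and 6.64 and 6.62 in sham RV, so that it was lower at 3 weeks than at 1 week (-1.10 ± 0.14, adjusted p = 0.030) and higher than in sham (0.59 ± 0.14, adjusted p = 0.041).

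Genes of the circadian clock differed between the times. Dbp, a clock-driven transcription factor, had levels of 9.48 and 9.17 at 1 week, 8.17 and 7.85 at 3 weeks and 9.63 and 9.28 at 6 weeks, with 7.93 and 8.14 in sham RV. Nr1d1, which encodes REV-ERB alpha, had levels of 10.76 and 10.60 at 1 week, 9.75 and 9.48 at 3 weeks and 10.79 and 10.91 at 6 weeks, with 9.70 and 10.01 in sham RV. Arntl, the clock activator that runs in the opposite phase, had levels of 7.93 and 8.04 at 1 week, 8.62 and 8.70 at 3 weeks and 7.89 and 7.99 at 6 weeks, with 8.66 and 8.55 in sham RV. All 3 stood near sham at 3 weeks. At 1 and 6 weeks Dbp and Nr1d1 were higher, and Arntl was lower, than in sham RV. Dbp and Nr1d1 passed in both comparisons of times, and Arntl passed against 1 week (adjusted p = 0.049) and not between 6 and 3 weeks (adjusted p = 0.057). Tcap, telethonin of the Z-disc, had levels of 11.44 and 11.24 at 1 week, 10.57 and 10.61 at 3 weeks and 11.32 and 11.25 at 6 weeks, and passed against 1 week only (adjusted p = 0.048). The labels give no hour of tissue collection. Between clipped and sham RV at 3 weeks none of the 14 clock genes passed limma (2 at an unadjusted p below 0.05).

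Mmrn1, multimerin 1, a protein of platelets and endothelium, gave the smallest adjusted p between times. It had levels of 4.04 and 3.88 at 1 week and 7.52 and 7.96 at 3 weeks (3.78 ± 0.24, adjusted p = 0.00021), with 7.41 and 7.90 at 6 weeks. The other 8 arrays of the series outside 3-week and 1-week clipping lay between 7.08 and 7.90, so the 1-week pair alone was low. As background, a C57BL/6 substrain is known to carry a deletion that covers Mmrn1. The labels name no substrain, and the substrain of the animals was not tested.

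**Figure D4:**
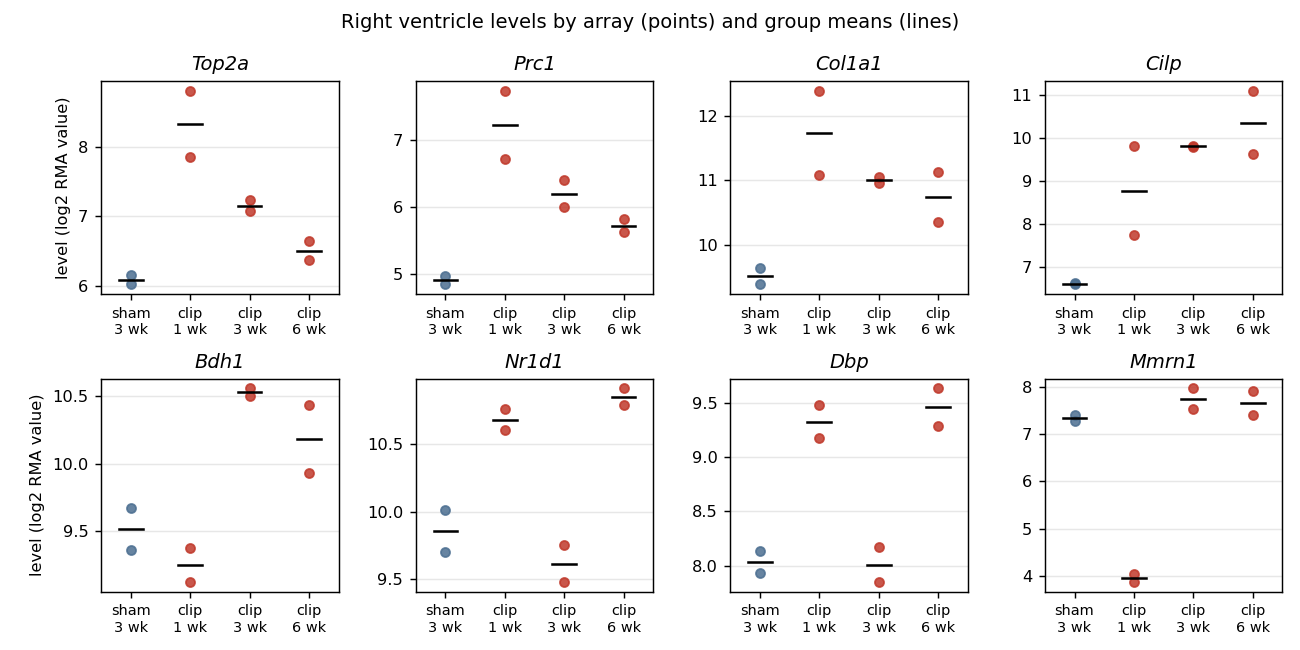
Deposited log2 level of 8 genes in sham RV at 3 weeks and in clipped RV at 1, 3 and 6 weeks; points are arrays and lines are group means (n = 2 each). Top2a is highest at 1 week, Dbp and Nr1d1 at 3 weeks lie near sham and below 1 and 6 weeks, and Mmrn1 is low on the 1-week arrays only.

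Decreases in the clipped RV were smaller than the increases, and 3 named genes reached 2-fold. Inmt, a methyltransferase of indole amines, fell to 9.18 and 8.46 in clipped RV, against 10.36 and 9.81 in sham RV (-1.26 ± 0.31, adjusted p = 0.046), and it missed the threshold after cyclic loess scaling (adjusted p = 0.051). Ces1d, a carboxylesterase that hydrolyses lipid esters, fell to 9.03 and 8.98 in clipped RV, against 10.36 and 10.04 in sham RV (-1.19 ± 0.28, adjusted p = 0.040). Penk, the precursor of enkephalins, fell to 7.73 and 7.31 in clipped RV, against 8.75 and 8.54 in sham RV (-1.12 ± 0.21, adjusted p = 0.027). The highest clipped array of each was below the lowest sham array, as the rule for naming the largest decreases requires. Alox5, the lipoxygenase that starts leukotriene synthesis, fell to 7.46 and 7.53 in clipped RV, against 8.24 and 8.39 in sham RV (-0.82 ± 0.12, adjusted p = 0.018). Slit2, a ligand of Robo receptors, fell to 7.48 and 7.42 in clipped RV, against 8.40 and 8.06 in sham RV (-0.78 ± 0.13, adjusted p = 0.021). Of the 20 largest decreases 14 passed after cyclic loess scaling, as did 14 of the 20 largest increases, and all 40 kept their sign. In 4 of the 20 decreases (Dppa3, Cbln1, Ccdc87 and an immunoglobulin kappa variable segment) both group means lay at or below 5.79, and in none of the increases.

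The LV taken at the same time after aortic clipping was set beside the RV. For TAC against sham LV 0 genes passed by limma, with 963 at an unadjusted p below 0.05 and a smallest adjusted p of 0.65. The genes called in the clipped RV mostly had the same sign there. Of the 642 higher genes 542 (84.4%) had a positive TAC change, against 44.8% of all genes, with a median of 0.55 in PAC beside 0.11 in TAC. Of the 506 lower genes 354 (70%) had a negative TAC change, against 55.2% of all genes, with a median of -0.49 in PAC beside -0.06 in TAC. The called genes were chosen for their PAC changes, which by itself favours smaller TAC changes. The paired medians therefore do not compare the sizes of the PAC and TAC responses. The RV and LV comparisons share no array.

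Single genes gave unlike pairs of values, for which the difference did not pass its own test. The change in Acta1 was 2.01 in PAC and 1.36 in TAC, that in Cilp 3.20 in PAC and 1.33 in TAC, and that in Prc1 1.29 in PAC and 1.01 in TAC. The change in Col1a1 was 1.5 in PAC and 0.38 in TAC, and that in Nppa 2.49 ± 0.38 in PAC and 0.33 ± 0.38 in TAC. The sham LV arrays already had high Nppa (12.05 and 13.00), above both sham RV arrays. Atrial markers were also higher on sham LV array 2, where Myl4 read 11.07 against 8.89 on sham LV array 1 and the list's mean level was 9.25 against 8.36, and their part in the Nppa values was not tested. The test of the difference itself, the PAC change less the TAC change, passed for 0 of 19938 genes (2381 at an unadjusted p below 0.05, smallest adjusted p 0.35), with a median SE of 0.159. For Nppa that difference was 2.16 ± 0.54 and for Postn 2.07 ± 0.72 (adjusted p = 0.35 and 0.37). Of the 5 smallest p-values of that test, Kctd12b gave 0.69 ± 0.11 and Fuca2 0.91 ± 0.16, both with an adjusted p of 0.35. Fuca2 stood at 11.46 and 11.57 in clipped RV against 10.42 and 10.45 in sham RV, and at 11.51 and 11.54 in TAC LV against 11.38 and 11.33 in sham LV. Its sham RV arrays alone were low. Aqp8, a water channel with one of the 5 smallest p-values in TAC (0.78 ± 0.13, adjusted p = 0.65), had risen in the clipped RV too (0.65 ± 0.13, adjusted p = 0.031).

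**Figure D5:**
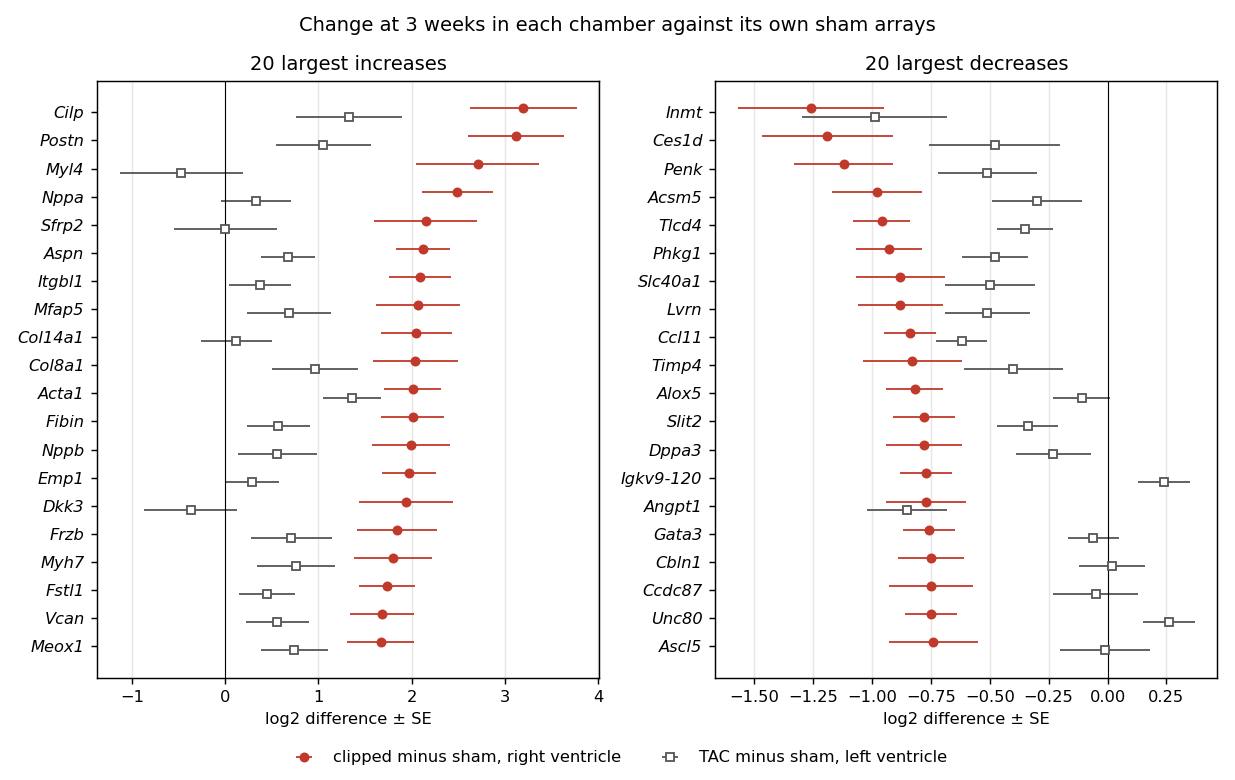
Log2 change ± limma SE of the 20 largest increases and the 20 largest decreases of the clipped RV (filled red circles, PAC minus sham RV), each with the LV change (open squares, TAC minus sham LV) below it, at 3 weeks (n = 2 arrays per group). The square lies between 0 and the circle for 17 of the 20 increases and 16 of the 20 decreases, as for Cilp with its circle at 3.20 and its square at 1.33. The genes were chosen for large PAC changes, which by itself favours smaller TAC changes, so these counts do not compare the 2 responses.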

How the data were processed

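The values analysed are log2 expression values per probe set, deposited by the authors as 1 table for the 12 arrays. RMA and Affymetrix Power Tools are named in the submitters' processing notes as the tools behind them. RMA subtracts background, sets all arrays to the same distribution and sums the probes of a set. For tool versions, array library files and genome build: not given in the sources used here. They lie between 1.71 and 14.78, and the medians of the arrays between 6.32 and 6.40. Such arrays give no read depth, and 2 arrays per group limit the precision.

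Of 35556 probe sets 21789 carried 1 gene, 1621 carried several and 12146 were unlisted in the platform annotation. Only the first kind was used in the report, and 999 genes had more than 1 probe set, and the one with the highest 12-array mean then stood for the gene. Symbols were updated through gene identifiers, except 91 probe sets whose identifier was missing from the reference table.

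One mean per group was fitted to the 12 arrays with limma 3.58.1 in R 4.3.3 (6 residual and 4.6 prior degrees of freedom), with Benjamini-Hochberg adjustment over 19938 genes and no further scaling. The scripts were tested on simulated data. Alternatives were cyclic loess scaling, averaging a gene's probe sets, dropping genes below the median level (6.74), a trended and robust prior, fitting the compared arrays alone, a replicate block, and removal of 1 array at a time.

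The 55 gene lists (39 pathways, 16 cell types, 1218 genes measured) and the members were chosen with earlier results of these data known. Genes were named by rule: the 20 largest increases and 20 largest decreases that passed with non-overlapping arrays, up to 6 members of each list by adjusted p, up to 10 genes passing in the most fits without 1 of the arrays compared, and Nppa, Nppb, Myh6, Myh7 and Acta1. In the other contrasts up to 8 genes each way were named, or the 5 smallest p where fewer than 5 passed. Gene models, clones, olfactory receptors and small RNAs were counted but not named.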

Additional observations from a re-analysis of the deposited data

Results flagged for a closer look

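For 8 named genes that passed in the clipped RV, the PAC arrays lay on one side of sham RV and the TAC arrays on the opposite side of sham LV. The PAC change less the TAC change was 1.22 for Il33, 0.81 for Fkbp14, 0.59 for Pdgfd, 0.55 for Pfkl and 0.43 for Copb1. It was -1.01 for an immunoglobulin kappa variable segment, -1.0 for Unc80 and -0.84 for Mptx1. None of these differences passed the limma test of the difference (0 of 19938 genes, 2381 at an unadjusted p below 0.05), so the opposite directions are descriptions of these arrays.

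Probe sets that carry several genes stand outside the comparisons of the report. Of 1621 such probe sets 77 passed between clipped and sham RV at 3 weeks (39 higher and 38 lower, with 401 at an unadjusted p below 0.05). None of the 12146 unlisted probe sets passed limma, with 2139 at an unadjusted p below 0.05.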

How the results depend on the processing

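The count of 1148 genes between clipped and sham RV at 3 weeks was 535 after cyclic loess scaling (320 higher and 215 lower), 1145 with the mean over probe sets, 1090 with only the arrays compared, 1587 without genes below the median level and 1648 with the trended and robust prior. Leaving out 1 array at a time gave 3 to 2070, with 3 without PAC array 2 or sham RV array 2, 51 without sham RV array 1, 273 without either TAC array, 535 without either sham LV array and 2070 without either 1-week array. The 3-week against 1-week count of 11 was 34 with the trended and robust prior, 22 without genes below the median level, 1 with only the arrays compared, and 3 to 346 without 1 array (346 without 1-week array 1). The 6-week against 3-week count of 4 was 0 with only the arrays compared and 0 to 11 without 1 array (11 without 3-week array 1). For TAC against sham LV the count of 0 was 0 to 1 without 1 array, and for the PAC change less the TAC change it was 2 with only the arrays compared and 0 to 3 without 1 array. Leaving out an array of a group outside a comparison keeps the compared means and alters only the pooled spread and its degrees of freedom. The cause of the other shifts was not tested. Of 350 named genes 61 lost their call after cyclic loess scaling. Of the same 350, 15 changed sign under an alternative, none of which had passed between clipped and sham RV. With cyclic loess scaling the log2 change was 0.05 for S100b, 0.01 for Ucp1, 0.08 for Slc4a1, 0.08 for Tceal6, -0.04 for Arntl and -0.07 for B3galt2. Without 1 array it ran from -0.00 to 0.27 for Ak4, -0.20 to 0.04 for Gamt, -0.37 to 1.14 for Per1, -0.40 to 0.02 for H2-DMa, -0.21 to 0.09 for Cnp, -0.07 to 0.86 for Alas2 and -0.12 to 0.10 for Slc4a1. Its range was -0.02 to 0.08 for Tac1, -0.00 to 0.11 for Arntl, -0.32 to 0.00 for Ddc, -0.18 to 0.14 for Dbp, -0.08 to 0.11 for B3galt2 and -0.17 to 0.03 for Tceal6. The 6 of the 20 largest increases that lost their call after cyclic loess scaling were Myl4, Sfrp2, Col8a1, Dkk3, Frzb and Myh7. The 6 of the 20 largest decreases that lost it after that scaling were Inmt, Lvrn, Timp4, Dppa3, Ccdc87 and Ascl5. No label says that a replicate number marks a shared animal, litter or day. The deviations of same-numbered arrays correlated at -0.09 for clipped against sham RV at 3 weeks, at 0.26 to 0.37 among the clipped groups of 1, 3 and 6 weeks, and at -0.24 to 0.11 over the other pairs of groups. With the replicate block 1387 genes passed between clipped and sham RV (764 higher and 623 lower), 8 between 3 weeks and 1 week (7 shared with the 11) and 5 between 6 and 3 weeks (4 shared with the 4). Signal near that of unlisted probe sets limits what can be said of lower genes, and 2 arrays per group limit every call.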
